A study of Mus musculus with 16 samples.

Results

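The Platr lncRNAs are transcripts named for their link with pluripotency, and 8 of them had at least 1 significant RNA–DNA pair in the tables of H3K27me3-RADIP and its Input in mouse embryonic stem cells. They were selected on the name of the RNA (Platr followed by a number) and on being listed at the q-value limit of 0.1 in either table, so that being listed, and in which table, is a description of the selected members. The 8 names are among 1282 lncRNA names and 12080 RNA names listed in the tables together. A GENCODE release of the same genome build, older than that of the study, holds 30 such Platr genes, with Platr17 and Platr25 classed as protein-coding. Of these 30, the 22 beyond the 8 above had no pair listed under their name in either table. Genes renamed between the releases were not traced.

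RADIP joins RADICL-seq, in which RNA and DNA lying close together in fixed nuclei are ligated to the ends of one adapter, with chromatin immunoprecipitation. PGK12.1 cells, a mouse embryonic stem cell line grown in serum with leukemia inhibitory factor with no treatment or genetic change given in the labels, were crosslinked with 1% formaldehyde, and the sheared material was precipitated with an antibody against H3K27me3, the histone mark set by PRC2. The Input was a 10 percent portion of the ligated material that was not precipitated. The labels list 8 H3K27me3-RADIP and 8 Input libraries, which were merged into 1 table for each before significant pairs were called, so no spread between replicates could be measured and no difference below has a test.

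Most Platr RNAs are intergenic lncRNAs found in a screen for transcripts that are high in embryonic stem cells and fall when the cells leave pluripotency. Several have been studied by knockdown, and roles in holding the pluripotent state or in the timing of differentiation have been described for some of them, while most have no described function. PRC2 keeps lineage genes silent in such cells, and many nuclear lncRNAs have been captured near it or near the chromatin it marks, often at and around their own genes.

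A pair here is 1 line of a table, with a 25-nucleotide RNA tag and a DNA tag, and the authors called each combination of an RNA and a 25-kb DNA bin significant or not. Input held 1305107 pairs, of which 39083 were from lncRNAs, and H3K27me3-RADIP held 1415135, of which 51049 were from lncRNAs. The list of 16 markers of pluripotent cells had 9 members listed in Input and 10 in the RADIP table, led by Esrrb, with 2388 and 2500 pairs. Listed markers numbered 2 and 2 of 5 for endoderm, 0 and 1 of 3 for mesoderm, 1 and 2 of 3 for neural cells, 0 and 1 of 4 for fibroblasts or feeders and 0 of 4 for trophoblast in both, but Pou5f1 and Nanog, which define these cells, were not listed either, so absence from the tables does not mean that an RNA is absent.

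The 8 listed genes lie on 6 chromosomes, and 5 of them had at least 50 pairs in the tables together. Platr22 (ENSMUSG00000097448.1) is a lincRNA gene at chr1:136696211-136726142 on the plus strand, Platr28 (ENSMUSG00000057215.6) lies at chr7:107243022-107300396 on the plus strand, and Platr4 (ENSMUSG00000097639.2) lies at chr3:41484024-41493192 on the minus strand. Platr20 (ENSMUSG00000086646.7) lies at chr11:51189833-51220418 and Platr21 (ENSMUSG00000086807.8) at chrX:139240226-139357738, both on the minus strand. The remaining 3 had fewer pairs, namely Platr10 (ENSMUSG00000099370.1, chr3:75647446-75655731, minus strand), Platr32 (ENSMUSG00000085194.1, chr7:81059113-81066307, plus strand) and Platr6 (ENSMUSG00000097107.1, chr10:21830499-21844851, minus strand). All coordinates are of mm10, and every RNA tag lay on the strand of its gene. Platr32 lies within Alpk3 on the same strand, so its tags and those of unspliced Alpk3 RNA cannot be told apart.

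The RNA tag position captured most often is shown for the 3 members with the most pairs, because it shows what kind of RNA was ligated. All of them fall in introns. The Platr22 tag at chr1:136710037-136710061, 13.8 kb from the gene start, was found in 6 Input pairs and 1 H3K27me3-RADIP pair, and its DNA tags lay in 5 different bins. The Platr28 tag at chr7:107252923-107252947 was found in 2 pairs of each table, and the Platr4 tag at chr3:41492962-41492986, 0.206 kb from the gene start, in 3 Input pairs. The 2 Platr28 pairs of each table also share their DNA tag position, so they are repeats that may come from 1 event. Of the 6 Platr22 pairs in Input, 2 likewise share a DNA tag position. The tags are read from the genome as starting and ending at the listed bases, in the direction of transcription. Whether the listed start counts from 0 or 1 could not be settled, so a tag may be 1 base shorter at one end. No base is in capitals because none of these tags holds a run of at least 4 G, the only feature searched in them.
Platr22 tag: tttgtttcagaagctgtgtggtccc
Platr28 tag: gtgtctttgaggatatgttattgat
Platr4 tag: gctagtaaaggtgtattaaaagtaa
Captured positions were otherwise spread out. Platr22 had 238 different tag positions over both tables, of which 12 occurred in both, Platr28 had 116 with 1 in both, and Platr4 had 63 with 1 in both. A run of at least 4 G, a feature known in RNA that PRC2 binds in vitro, was in 9 of 386 Platr tags in Input (2.33%, exact 95% interval 1.07 to 4.38) and in 9 of 246 in H3K27me3-RADIP (3.66%, 1.69 to 6.83). In tags of the other lncRNAs, pooled over all names, the shares were 6.37% and 6.46%, above the Platr interval in Input and within it in H3K27me3-RADIP.

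Promoters from RefSeq (build GRCm38.p6, 250 bases before to 50 after the annotated start) were found for 5 of the 8 members, and Platr4, Platr28 and Platr32 were not matched. Those of the 3 matched members with at least 50 pairs are shown. Capitals mark runs of at least 4 G, on either strand, and the octamer bound by POU factors such as Oct4 (ATGCAAAT, either strand).
Platr22 promoter, chr1:136695961-136696260, plus strand: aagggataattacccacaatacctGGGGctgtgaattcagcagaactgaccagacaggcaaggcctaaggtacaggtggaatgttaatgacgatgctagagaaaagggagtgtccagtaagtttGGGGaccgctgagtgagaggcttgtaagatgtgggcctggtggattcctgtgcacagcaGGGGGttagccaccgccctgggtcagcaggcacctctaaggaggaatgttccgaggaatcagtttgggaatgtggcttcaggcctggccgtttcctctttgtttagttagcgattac
Platr20 promoter, chr11:51220369-51220668, minus strand: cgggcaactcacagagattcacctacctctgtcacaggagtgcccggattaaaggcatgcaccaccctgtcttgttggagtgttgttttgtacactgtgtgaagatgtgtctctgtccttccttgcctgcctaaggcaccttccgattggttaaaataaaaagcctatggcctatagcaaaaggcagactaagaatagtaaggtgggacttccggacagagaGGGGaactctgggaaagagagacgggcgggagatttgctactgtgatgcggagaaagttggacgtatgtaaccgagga
Platr21 promoter, chrX:139357689-139357988, minus strand: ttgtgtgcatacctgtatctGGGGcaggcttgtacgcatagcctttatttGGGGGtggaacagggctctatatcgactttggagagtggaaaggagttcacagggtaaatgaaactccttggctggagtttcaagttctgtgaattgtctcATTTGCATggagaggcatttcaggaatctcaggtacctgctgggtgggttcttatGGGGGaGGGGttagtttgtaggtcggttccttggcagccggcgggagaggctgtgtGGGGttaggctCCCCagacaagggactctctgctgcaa
The Platr21 promoter shown holds 1 octamer, a match found in 1.74% of 32851 promoters of this length, and another Platr21 entry, at chrX:139356721-139357020, holds none. Neither the Platr22 nor the Platr20 promoter holds the octamer, and none of the 3 holds CATTGT, the Sox side of the Oct4–Sox2 element, on either strand, which 12.6% of all promoters hold. Runs of at least 4 G are in all 3, but 86.4% of all promoters hold one. These matches describe the letters in the window only.

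In the tables together the Platr RNAs had 632 pairs, all between an RNA and DNA of the same chromosome. Input held 386 Platr pairs and H3K27me3-RADIP held 246. As a share of all lncRNA pairs this is 0.988% in Input (exact 95% interval 0.892 to 1.09) and 0.482% in H3K27me3-RADIP (0.424 to 0.546), a difference of -0.51 percentage points (-0.62 to -0.39). The intervals cover counting error only and treat pairs as independent. Pairs of 1 RNA and bin enter or leave a table together, so these intervals may be too narrow. Pairs with the same tag positions as an earlier one made up 24 of the 386 and 27 of the 246.

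Platr22, which has been linked to the pluripotent state and lies near Nr5a2 and Zfp281, had the most pairs, with 154 in Input and 122 in H3K27me3-RADIP. Platr28, a lincRNA between Nlrp14 and Rbmxl2 on one side and Syt9 on the other, had 89 in Input and 41 in H3K27me3-RADIP. Platr4, which has been studied in mesoderm and heart muscle differentiation, had 49 and 23. In all 3 the Input value was the higher one, and the counting intervals did not overlap for Platr28 (71.5 to 109.5 against 29.4 to 55.6) and Platr4 (36.3 to 64.8 against 14.6 to 34.5), while those of Platr22 did. Among the 572 lncRNA names in both tables, 3.15% had unscaled intervals apart with Input higher and 9.09% with H3K27me3-RADIP higher.

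Platr20, a lincRNA whose start lies close to that of Gm12569, had 34 Input pairs and 22 H3K27me3-RADIP pairs. Platr21, the longest member at 117.5 kb and the only one on the X chromosome, had 33 and 21. Platr32, the sense intronic transcript in Alpk3, had 12 and 8. Input was again higher for each, with overlapping counting intervals.

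The other pair of names was listed in 1 table each. Platr10 had 15 pairs in Input, in 1 bin with a q-value of 1.31e-06, and was not listed in H3K27me3-RADIP. Platr6 had 9 pairs in H3K27me3-RADIP, in 1 bin with a q-value of 0.00700, and was not listed in Input. With 9 pairs in all, Platr6 is the member nearest to the limit, and the names just outside it have no value here. Names restricted to Input made up 21.8% of all 1282 lncRNA names, and names restricted to H3K27me3-RADIP 33.5%. Because the tables leave out what did not reach the q-value limit, a name that is not listed may still have had fewer pairs, and no ratio is given for these names.

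**Figure D1:**
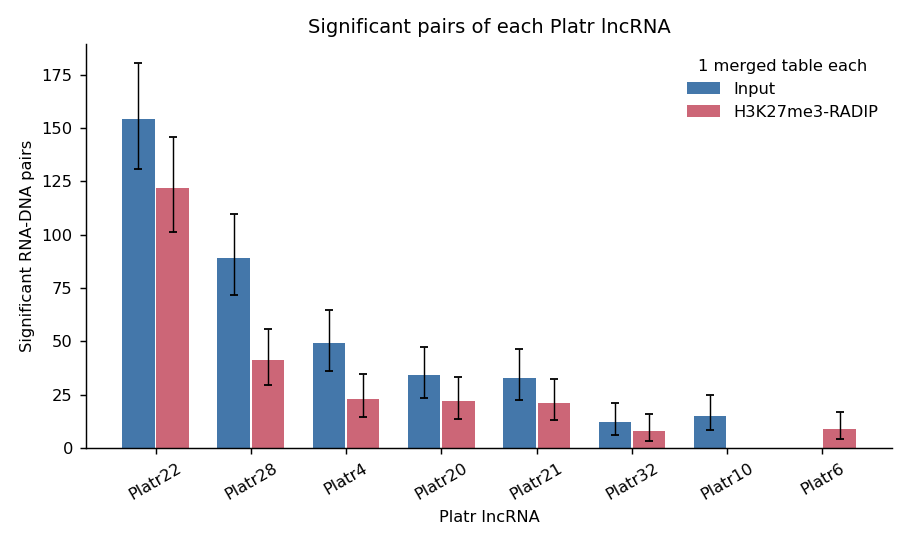
The number of significant pairs (vertical axis) of each Platr lncRNA (horizontal axis, from the most to the fewest pairs) in the 1 merged table of Input (blue) and of H3K27me3-RADIP (red), with exact 95% Poisson intervals that cover counting error only. Input is the higher bar for the 6 names listed in both, from Platr22 (154 and 122) to Platr32 (12 and 8), while Platr10 has an Input bar only and Platr6 an H3K27me3-RADIP bar only.

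Per kb of gene, the order changes. Platr4 (9.17 kb) had 5.34 pairs per kb in Input and 2.51 in H3K27me3-RADIP, and Platr22 (29.9 kb) had 5.15 and 4.08. Platr10 had 1.81 in Input, Platr32 had 1.67 and 1.11, and Platr28 had 1.55 and 0.715. Platr21 had the lowest values of the members listed in both tables, with 0.281 and 0.179 pairs per kb, so its 54 pairs come from a long gene. In Input, Platr4 and Platr22 thus stood at a like level per length and well above the other members.

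Ratios of H3K27me3-RADIP over Input were taken on the log2 scale after scaling with the trimmed mean of M-values over the 572 lncRNA names listed in both tables. All 6 shared Platr names had a ratio below 0, with a median of -0.77 against -0.02 for all shared lncRNA names. Among them 5 of 6 lay at least 0.5 lower in H3K27me3-RADIP, beside 23.6% of the shared lncRNA names, and 0 of 6 lay at least 0.5 higher, beside 24.3%. Since Platr names were selected on being listed, and few pairs give wide intervals, this is a description of 6 ratios.

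Platr28 had the lowest log2 ratio, -1.24 (95% interval -1.81 to -0.69), and Platr4 nearly the same, -1.22 (-2.0 to -0.47). The ratio of Platr22 was -0.46 (-0.82 to -0.11), under 0.5 in size. These are the 3 Platr names with an interval wholly below 0, and none had one wholly above 0, while 10.1% of all shared lncRNA names had an interval wholly below 0 and 12.6% wholly above.

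For Platr21 the log2 ratio was -0.78 (-1.64 to 0.06), for Platr20 -0.75 (-1.60 to 0.06) and for Platr32 -0.71 (-2.21 to 0.70), so the counting error alone spans 0 for each. Among the 166 shared lncRNA names with at least 50 pairs, where ratios are less noisy, 15.1% lay at least 0.5 lower, and Platr28 and Platr4 held ranks 3 and 4 from the lowest ratio. The direction rests in part on bins listed in 1 table only. Within bins listed in both tables the log2 ratio of Platr4 turned to 0.33 (-1.11 to 1.85) and that of Platr21 to 0.0123 (-1.36 to 1.41), Platr28 moved to -0.60 (-1.44 to 0.22), and 3 of 6 names (Platr22, Platr28 and Platr32) lay at least 0.5 lower. At a q-value of at most 0.01 the number was 3 of 5, and the ratio of Platr4 was -0.65 with an interval that spans 0 (-1.49 to 0.16).

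**Figure D2:**
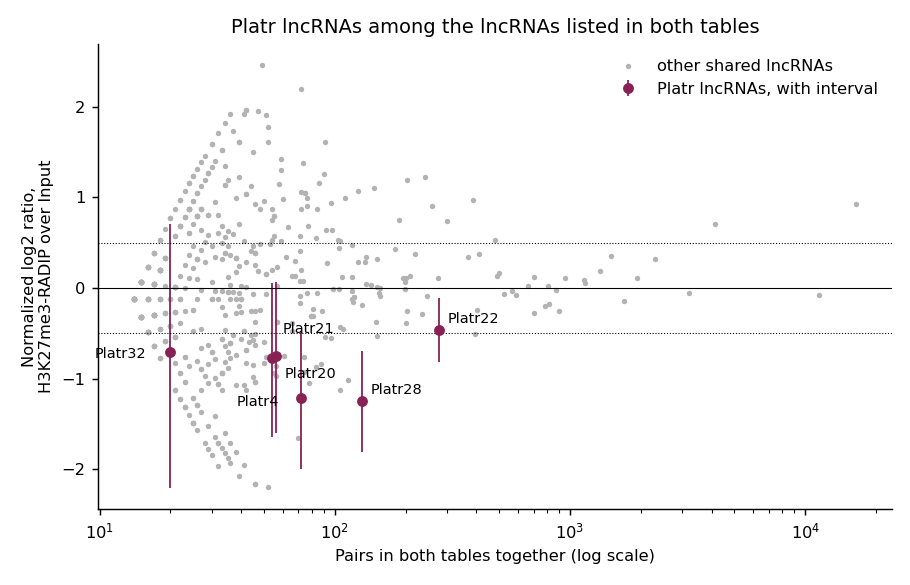
Normalized log2 ratio of pairs, H3K27me3-RADIP over Input (vertical axis), against the pairs in both tables together (horizontal axis, log scale) for the 572 shared lncRNAs, with the 6 Platr names in purple and their exact conditional 95% intervals. Dotted lines mark a log2 ratio of 0.5 in each direction. All 6 Platr points lie below 0, from -0.46 (Platr22) to -1.24 (Platr28). The grey cloud spreads widely at low pair numbers, and Platr28, with 130 pairs, lies at its lower edge.

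Other lncRNAs of embryonic stem cells were taken from a list of 19, of which 12 were listed in Input and 14 in H3K27me3-RADIP. Of the 12 in both tables, 2 lay at least 0.5 lower (Gas5 and Tug1) and 3 at least 0.5 higher (Tunar, Ftx and Malat1), near the 23.6% and 24.3% of all shared lncRNA names, with a median log2 ratio of 0.24. The tables class Tunar and Tug1 as protein-coding, so these 2 ratios were scaled over protein-coding names. Malat1, a nuclear speckle RNA, had 1494 and 2653 pairs and a log2 ratio of 0.70 (0.61 to 0.80), and Tunar, a lncRNA of pluripotency and neural differentiation, had 33 and 61 pairs and 0.85 (0.22 to 1.51). Lncenc1, an RNA abundant in naive stem cells, had 436 and 513 pairs and 0.11 (-0.08 to 0.30). Gas5, a snoRNA host gene, had 28 and 17 pairs and -0.85 (-1.81 to 0.07), and Tug1 had 19 and 12 pairs and -0.70 (-1.87 to 0.42). The difference between this list and the Platr names was not tested.

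The lower pair number in H3K27me3-RADIP was accompanied by fewer DNA bins. Combinations of a Platr RNA and a 25-kb bin numbered 27 in Input against 19 in H3K27me3-RADIP. Both tables held 11 of them, or 40.7% of the Input and 57.9% of the H3K27me3-RADIP combinations. For the other lncRNAs, Input held 2402 combinations against 3179 in H3K27me3-RADIP, and 1515 were shared, or 63.1% and 47.7%. Within those 11, Input held 208 pairs and H3K27me3-RADIP 166. No listed Platr combination had under 8 pairs, and 20 of the 27 in Input and 17 of the 19 in H3K27me3-RADIP had at most 13, so a change of a few pairs moves a bin in or out of a table.

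Platr22 bins numbered 8 in Input and 7 after precipitation, with 5 in both. The bin inside its gene at chr1:136700001-136725000 had 68 pairs in Input (q-value 1.03e-47) and 41 in H3K27me3-RADIP (5.51e-28), the most of any Platr bin in each table. The next bin, which holds the gene end, had 28 and 27 pairs, and the bin 23.9 kb past the gene end had 13 in each. Platr22 RNA was thus found with like numbers at and beyond the gene end, and the gap between the tables was largest in the gene body.

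Upstream of Platr22 the bins differed more between the tables. The bin at chr1:136600001-136625000, which overlaps Zfp281, a zinc finger factor of the pluripotency network, had 8 pairs in each table. A further bin that overlaps Zfp281 (chr1:136625001-136650000) had 8 pairs in Input only, and the nearest upstream bin (chr1:136650001-136675000) had 13 in H3K27me3-RADIP only. The farthest bin was in Input, 146.2 kb upstream of the gene start at Kif14, a mitotic kinesin, with 8 pairs and a q-value of 0.0555, the highest of any Platr bin and the same in each of the 4 Platr22 bins with 8 Input pairs. In H3K27me3-RADIP the farthest lay 121.2 kb upstream, with 9 pairs. Few of these DNA tags fell inside the named genes, with 1 in Input and 0 in H3K27me3-RADIP within Zfp281, and 3 and 0 within Kif14.

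The neighbours of Platr22 give the scale of its own values. RNA of Nr5a2, a nuclear receptor that can activate Oct4, had 1117 Input pairs against 1283 in H3K27me3-RADIP, giving a log2 ratio of 0.17 (0.05 to 0.28) after scaling over protein-coding names. In H3K27me3-RADIP it was the other RNA with the most pairs in each of the 10 Platr22 bins. Zfp281 RNA, from the nearest protein-coding gene at 66.2 kb, had 9 pairs in Input and was not listed in H3K27me3-RADIP, and Kif14 RNA had 67 and 41. Platr22, at -0.46, lay between Nr5a2 and Kif14 (-0.74).

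Platr28 had 7 bins in Input and 4 in H3K27me3-RADIP, with 2 in both. Its own gene had 20 Input pairs in the bin at chr7:107250001-107275000 and 18 in the next, against 11 and none listed in H3K27me3-RADIP, while the bin with the gene end had 12 in each table. All other bins lay downstream. In Input they reached 349.6 kb past the gene end, to a bin with 10 pairs at Ppfibp2, a liprin scaffold protein. In H3K27me3-RADIP the farthest bin, with 8 pairs, lay 99.6 kb past the gene end in Syt9, a calcium sensor of vesicle release. Platr28 DNA tags within Syt9 numbered 20 in Input and 8 in H3K27me3-RADIP, and none of the Syt9 bins was the same in both tables.

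Syt9 RNA itself had 673 and 552 pairs, a log2 ratio of -0.32 (-0.48 to -0.15), and was the other RNA with the most pairs in 6 of the 7 Platr28 bins of Input, the exception being the farthest. Rbmxl2, the nearest protein-coding gene at 32.1 kb, had 29 pairs in Input and was not listed in H3K27me3-RADIP, and Nlrp14 had none. Ppfibp2 RNA, from the gene at the farthest Input bin, had 257 and 256 pairs.

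Platr4 had 4 bins in Input and 2 in H3K27me3-RADIP, with 1 in both. The bin that holds the whole gene (chr3:41475001-41500000) had 19 pairs in Input, with a q-value of 1.80e-09, and no listed pair in H3K27me3-RADIP. The shared bin, 9.02 kb downstream, had 8 and 11 pairs, and a bin 84.0 kb downstream had 12 pairs in H3K27me3-RADIP only. The Platr4 RNA listed in H3K27me3-RADIP was therefore all paired with DNA outside the gene's own bin, while each of the other 6 members of that table had pairs within bins of its own gene.

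The RNA of Jade1, a subunit of the HBO1 histone acetyltransferase complex and the nearest protein-coding gene at 62.5 kb, was listed in each of the 5 Platr4 bins in both tables. In the bin of the Platr4 gene its Input pairs numbered 59 and its H3K27me3-RADIP pairs 58, so the bin was not empty of listed pairs in H3K27me3-RADIP. Over all bins Jade1 had 2124 and 1807 pairs, a log2 ratio of -0.27 (-0.36 to -0.17), against -1.22 for Platr4.

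Platr20 had 3 bins in Input and 2 in H3K27me3-RADIP, and Platr21 had 3 and 2, with 1 in both for each. The shared Platr20 bin, at the gene start, had 16 and 13 pairs. Its far bin in Input lay 254.6 kb upstream in Col23a1, a transmembrane collagen gene, with 8 pairs. Every Platr21 bin overlapped its own gene, with 10 to 12 pairs in each, and the shared one, which holds Trap1a on the opposite strand, had 10 and 11. Platr32, Platr10 and Platr6 each had a single bin, at their own gene, and in those of Platr10 and Platr6 no other RNA was listed.

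**Figure D3:**
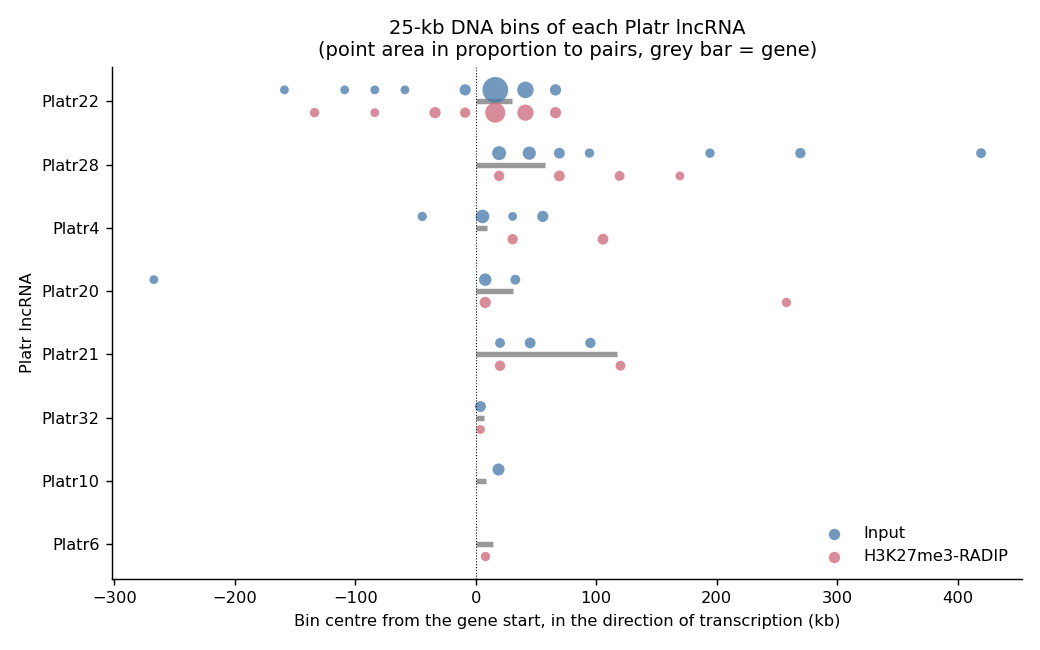
Centres of the 25-kb DNA bins listed for each Platr lncRNA (rows), in kb from the gene start in the direction of transcription, for Input (blue, upper) and H3K27me3-RADIP (red, lower), with the area of a point in proportion to its pairs and a grey bar for the gene. The points crowd on the genes, Platr28 reaches farthest downstream in Input (349.6 kb past the gene end), and Platr4 has no H3K27me3-RADIP point on its gene.

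Distance was taken between the centres of the RNA and the DNA tag. Over all Platr pairs the Input median was 18.6 kb and the H3K27me3-RADIP median 24.4 kb, and 15.3% of pairs (exact 95% interval 11.8 to 19.3) and 17.1% (12.6 to 22.4) were over 100 kb. The intervals of the shares over 100 kb overlap, and the difference was not tested. Distance was also taken from the DNA tag to the nearer end of the gene, on either side, with none for tags inside the gene. By that measure the order of these shares turned, to 13.99% in Input and 12.2% after precipitation. At a q-value of at most 0.01 the shares were 6.75% and 10.3%, and the median distances stood further apart, at 10.1 kb (95% interval 8.71 to 13.8) in Input and 20.6 kb (16.3 to 27.1) in H3K27me3-RADIP. For the other lncRNAs the shares over 100 kb were 35.7% and 43.5%, with medians of 30.8 and 59.2 kb, so Platr pairs were shorter in both tables when every pair is counted alike. With 1 median for each name the order turns, since the median of these was 12.8 and 13.8 kb over the Platr names and 2.17 and 2.18 kb over the other lncRNA names. No Platr pair exceeded 411.2 kb.

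The members differed in reach. Platr28 had the most distant pairs in Input, with a median of 38.1 kb, a maximum of 411.2 kb and 30 of 89 pairs over 100 kb, against 59.2 kb, 166.2 kb and 11 of 41 in H3K27me3-RADIP. Platr22 had medians of 16.9 and 21.4 kb, with 21 of 154 and 12 of 122 pairs over 100 kb. In Platr4 the median was 35.8 kb (Input) and 87.9 kb (H3K27me3-RADIP), and pairs over 100 kb numbered 0 of 49 and 7 of 23. Platr4 had the largest difference in median distance in kb between the tables among the 6 shared names, and its own bin was listed in Input only.

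Platr20 had medians of 8.96 and 11.3 kb, but 8 of 34 and 9 of 22 pairs over 100 kb. Platr21 had medians of 12.8 and 13.8 kb. Platr32 (3.52 and 1.21 kb), Platr10 (7.43 kb, Input) and Platr6 (2.49 kb, H3K27me3-RADIP) had no pair over 100 kb, as a single bin at the gene allows.

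**Figure D4:**
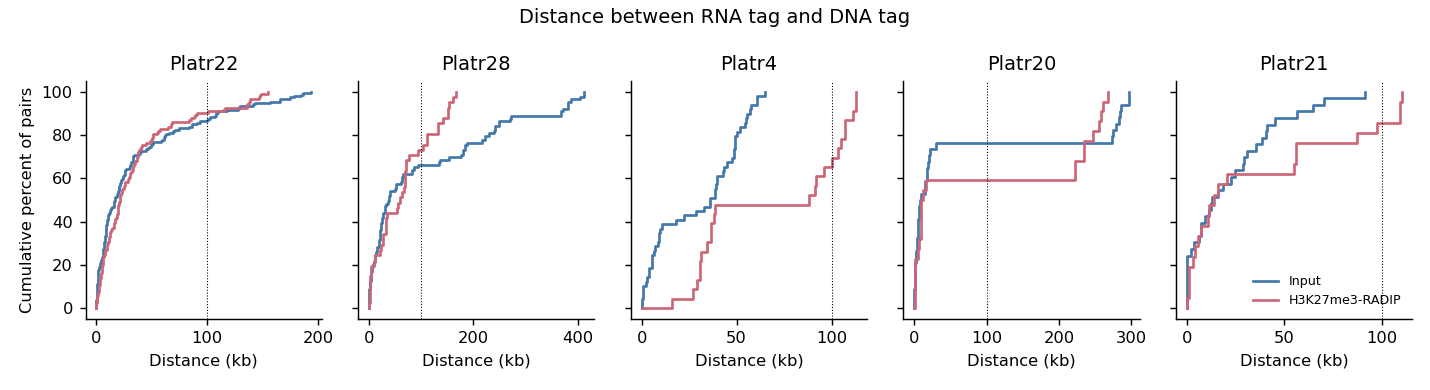
Cumulative percent of pairs (vertical axis) by distance between RNA and DNA tag in kb (horizontal axis, a different scale in each panel) for the 5 Platr lncRNAs with at least 50 pairs, in Input (blue) and H3K27me3-RADIP (red), with a dotted line at 100 kb. The curves of Platr22 lie close together, that of Platr28 runs on to 411.2 kb in Input only, and that of Platr4 is shifted to longer distances in H3K27me3-RADIP (median 87.9 kb against 35.8 kb).

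Captured Platr RNA was mostly intronic. An exonic tag was in 33 of 386 Input pairs (8.55%, exact 95% interval 5.96 to 11.8) and in 12 of 246 H3K27me3-RADIP pairs (4.88%, 2.55 to 8.37), intervals that overlap. In the other lncRNAs 28.5% of Input and 36.4% of H3K27me3-RADIP tags were exonic over all pairs, but only 12.2% and 10.8% without the 10 lncRNAs with the most pairs. With 1 share for each name the mean was 13.1% and 5.28% over the Platr names against 15.8% and 14.5% over the other lncRNA names, and the median, 5.62% and 3.28% for Platr, was 0% for the others in both tables. The Platr mean in Input includes Platr10, at 53.3% and listed in Input only. Over the 5 Platr names with at least 10 pairs in each table, the mean was 7.73% in Input and 7.39% in H3K27me3-RADIP. The gap over all pairs was thus largely that of a few abundant lncRNAs.

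Exons make up little of most of these genes. Platr22, with exons over 5.40% of its length, had 7 of 154 exonic tags in Input and 4 of 122 in H3K27me3-RADIP. Platr28, with 2.26%, had 5 of 89 and 1 of 41. Platr4, with 27.8%, had 11 of 49 and 4 of 23, and for these 3 the share of the gene length lies within the exact 95% interval of the tags in each table.

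Platr21 had 2 of 33 and 1 of 21 exonic tags, and Platr20 had 0 of 34 and 2 of 22. Those 2 Platr20 tags, at 30.417 and 30.418 kb from the gene start, share a DNA tag position, so they may come from 1 event. Platr32 and Platr6 had none among 12, 8 and 9. Platr10 stood apart, with 8 of 15 exonic tags (53.3%, 26.6 to 78.7) against exons over 21.1% of its gene, and its tags lay toward the 3′ end, at a median of 76.2% of the gene length. That interval rests on 15 pairs of 1 bin.

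**Figure D5:**
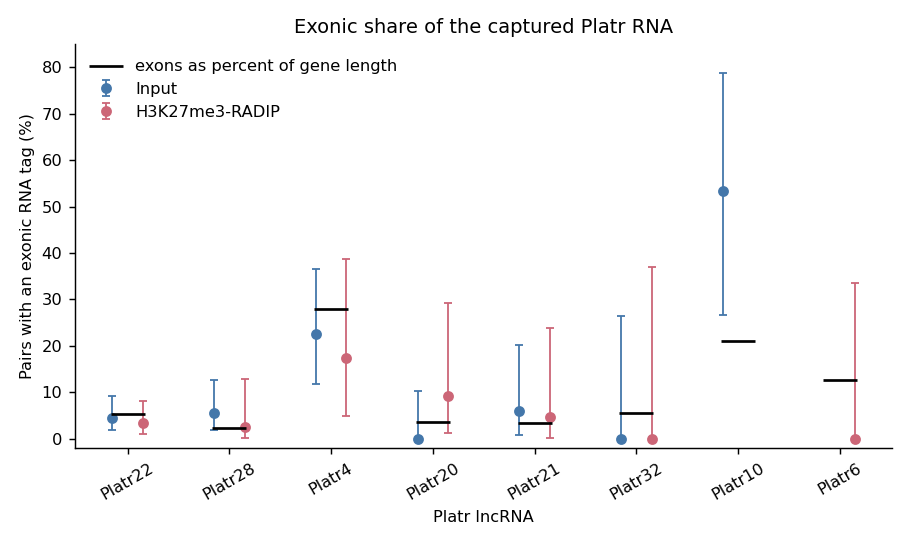
Percent of pairs with an exonic RNA tag (vertical axis) for each Platr lncRNA in Input (blue) and H3K27me3-RADIP (red), with exact 95% binomial intervals for counting error, and a black mark at the percent of the gene covered by exons. The black mark lies within every interval but that of Platr10, which is above it (53.3% against 21.1%).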

How the data were processed

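Per the study's methods, RNA and DNA tags of RADICL-seq and RADIP libraries were aligned to mm10, assigned to GENCODE genes and 25-kb bins, and tested for each RNA and bin against a negative binomial background drawn from pairs between chromosomes. The submitters' processing notes name CASAVA 1.8.2, STAR 2.5.0a and BWA 0.7.15-r1140. The authors deposited 1 table of significant pairs for Input and 1 for H3K27me3-RADIP, with a q-value (at most 0.1) for each combination of RNA and bin. The labels list 8 libraries for each, the methods give 4 biological replicates, and unadjusted p-values were not used. Depth of the unfiltered libraries was not used here.

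The members and lists were chosen with earlier results of these data known. Lines were counted by RNA name, bins were set by DNA tag centres, and log2 ratios used trimmed-mean scaling (trims of 30 and 5 percent) over shared lncRNA names (over shared protein-coding names for RNAs the tables class so), with exact conditional 95% intervals. No q-value or interval measures spread between replicates. Members with at least 50 pairs in the tables together, or listed in 1 table only, were described in full. Far bins, nearest protein-coding genes and promoters came from GENCODE M21 and RefSeq on GRCm38.p6, an older release than that of the study, and all 8 gene identifiers matched. Code (Python 3.11.15, pandas 2.3.3, scipy 1.17.1) was checked on simulated counts. The place of 1 far bin of Platr20 is not reported here.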

Additional observations from a re-analysis of the deposited data

How the results depend on the processing

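The Platr share of lncRNA pairs stayed lower in H3K27me3-RADIP under every alternative tried. With all pairs as the denominator the Input value was 0.0296% and the H3K27me3-RADIP value 0.0174% (difference -0.0122 points), without the 10 lncRNAs with the most pairs 1.87% and 1.01% (-0.87), and without Platr22 0.596% and 0.243% (-0.35). At a q-value of at most 0.01, or with at least 10 pairs asked of a name, 2 names were in Input only, and with at least 10 pairs 0 were in H3K27me3-RADIP only, since Platr32 and Platr6 have under 10 pairs there. The median log2 ratio ranged from -1.03 (scaling by lncRNA totals) to -0.46 (bins in both tables). The number at least 0.5 lower went from 5 to 3 at a q-value of at most 0.01 and to 3 within bins listed in both tables, where Platr4 turned to 0.33, Platr21 to 0.0123 and Platr28 moved to -0.60. Within the bins of the own gene, an alternative chosen after seeing the data, the median was -0.78, but Platr4 has no value there.

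Pairs over the distance limit were 6.75% and 10.3% at a q-value of at most 0.01, and 42.0% and 50% with the limit at 25 kb. They were 16.4% in Input and 24.2% in H3K27me3-RADIP without Platr22. With names weighted alike, over the 5 names with at least 10 pairs in each table, the mean of the name shares was 14.2% and 24.5%. By distance to the nearer end of the gene, with none for tags inside it, the shares were 13.99% and 12.2%, and the order of the tables turns. Median distances were 10.1 and 20.6 kb at a q-value of at most 0.01, and 0.605 and 5.79 kb to the nearer end of the gene. The mean of the name medians over the same 5 names was 22.5 and 38.7 kb. A share or median was taken as moved outside its 95% interval, and a count past 1.5 times. By these limits 26 comparisons of a main value with an alternative moved and 76 did not. The ratios of single names are not in this count, and of those 53 did not move, 1 moved and 2 turned in sign. Some alternatives in it had a fixed outcome. Gene identifiers in place of names change nothing, and another denominator or distance limit changes the quantity itself. No paired analysis was possible because the replicates of each group were merged before deposit. Merged tables, bins that hold few pairs more than the fewest listed (7 over all RNAs, 8 for Platr) and names not listed set what these values can show.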

Other observations

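The DNA of the Platr genes, apart from their RNA, was also contacted by other RNAs. Of the 8 listed genes 6 held DNA tags of other RNAs in Input and 3 in H3K27me3-RADIP, with 92 and 34 tags. In the Platr28 gene 33 of the 71 Input tags came from other RNAs, 30 of them from Syt9, and in H3K27me3-RADIP all 11 were from Platr28 itself. In the Platr4 gene 25 of 32 Input tags and all 20 H3K27me3-RADIP tags came from other RNAs, 25 of those in Input from Jade1.

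The 22 Platr genes with no listed RNA are shorter, with a median of 6.11 kb (0.847 to 88.9) against 22.1 kb (7.20 to 117.5) for the 8 listed. DNA tags of other RNAs lay in 13 of them in Input and in 10 in H3K27me3-RADIP, with 69 and 51 tags, and 8 had none in either table. Platr8, for example, held 13 Input tags, 9 of them from Lgr4, a receptor of R-spondins, and 9 H3K27me3-RADIP tags, all from Lgr4. Platr31 held 8 in Input and 11 in H3K27me3-RADIP, all from Tigar.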
